A study of Fragaria x ananassa with 6 samples.

Results

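Among the 28588 transcript IDs counted in strawberry fruit receptacle, 160 were present in FaWRKY71-RNAi fruit and absent or nearly absent from Control fruit. They are the IDs with at least 10 counts in each of the 3 FaWRKY71-RNAi libraries and at most 5 counts summed over the 3 Control libraries, with estimated counts rounded to whole numbers. They are called restricted IDs here. The same counts chose them, so their difference between the genotypes is given as a description, with no test. The name needs a qualification: 27 of the 160 were at 0 in the Control libraries after rounding, and the other 133 had between 1 and 5 Control counts. A further 7 IDs were set aside by the rule, and 0 of these met the thresholds.

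All 6 libraries came from the fruit receptacle of untreated plants of Fragaria x ananassa cv Chandler. FaWRKY71-RNAi plants were stably transformed through Agrobacterium with the pFRN silencing vector holding a conserved stretch of the FaWRKY71 coding sequence. Control plants were transformed with the same vector without that insert. The sources used here give neither the number of transgenic lines, nor the fruit stage, nor a batch, and a difference between the genotypes in any of these cannot be told apart from the silencing. Each genotype has 1 number shared by its library names; if it marks 1 source, the p-values below measure spread within that source. In bulk tissue, more cells of a type and more RNA per cell cannot be told apart either.

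WRKY proteins are plant transcription factors named for a conserved amino acid motif in their DNA-binding domain, and they are known for roles in stress, defence and hormone responses, where they can activate or repress their targets. RNA interference lowers a transcript through small RNAs cut from a hairpin RNA of the same sequence. The strawberry receptacle is the swollen flower base that forms the fleshy, edible part, and it changes its colour, texture and sugar content on ripening. Cultivated strawberry is octoploid, so most genes exist in several closely similar copies, and reads from these copies may be collected under 1 ID.

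The count table and the reference used here pair none of the IDs with a gene name or function. The 160 IDs are therefore described by their levels, their pattern over libraries, the form of their counts and their place in the ID order. The level of FaWRKY71 itself and markers of the receptacle were therefore not checked here. Library totals ranged from 8385218 to 9498057 counts in FaWRKY71-RNAi and from 9320022 to 10000538 in Control. Levels are in CPM, counts per 1000000 of a library size adjusted by TMM (the trimmed mean of M-values). The smallest level that the rule admits, 10 counts, corresponds to between 0.996 and 1.13 CPM in the FaWRKY71-RNAi libraries. Transcript lengths are not given, so CPM values order IDs by reads and not by molecules.

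Most restricted IDs were low in FaWRKY71-RNAi fruit. Their mean level over the FaWRKY71-RNAi libraries ran from 1.10 to 42.8 CPM with a median of 2.27 CPM. Only 46 of the 160 averaged at least 3 CPM, 18 at least 5 CPM and 6 at least 10 CPM. The median count of a restricted ID was 25, 18 and 22 in FaWRKY71-RNAi replicates 1 to 3, against 1, 1 and 0 in Control replicates 1 to 3. Summed over the 160 IDs, the level was 528.8 ± 27.9 CPM in FaWRKY71-RNAi and 15.0 ± 2.06 CPM in Control (mean ± SD, n = 3 each). The 12 IDs with the highest mean held 30.0% of the FaWRKY71-RNAi counts of the set. Without these 12, the sum was 369.7 ± 19.2 CPM in FaWRKY71-RNAi and 13.5 ± 1.78 CPM in Control (SD, n = 3 each).

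**Figure D1:**
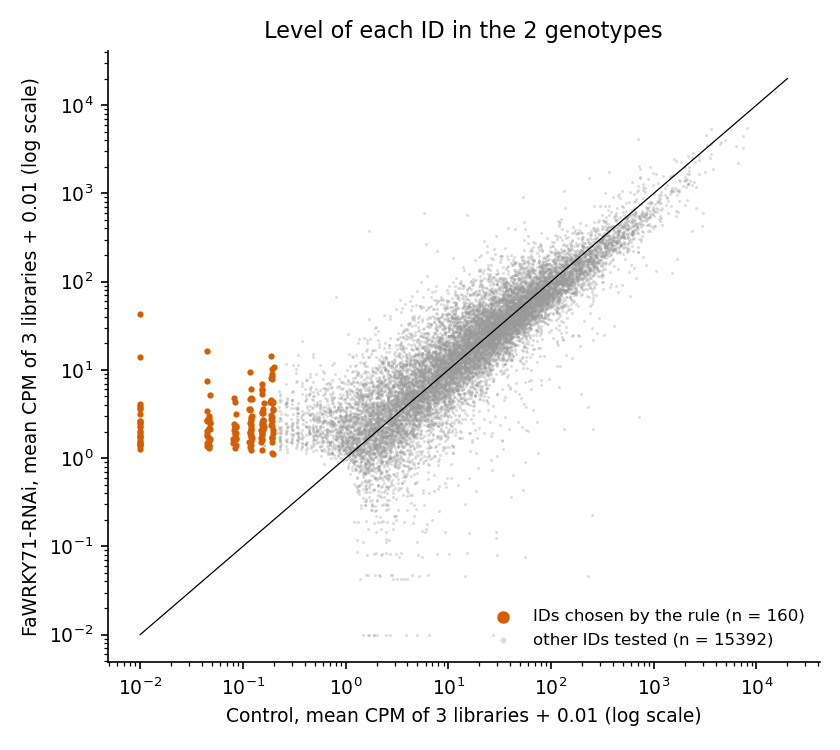
Mean level of each tested ID and each restricted ID, in CPM plus 0.01 on log scales. FaWRKY71-RNAi is on the vertical axis and Control on the horizontal axis. Each point is 1 ID, and the line marks equal levels. The 160 restricted IDs (orange) lie at the left edge of the cloud, with mean FaWRKY71-RNAi levels from 1.10 to 42.8 CPM. Other tested IDs with no Control count, such as FvH4_6g38340.1, lie at this edge too.

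**Figure D2:**
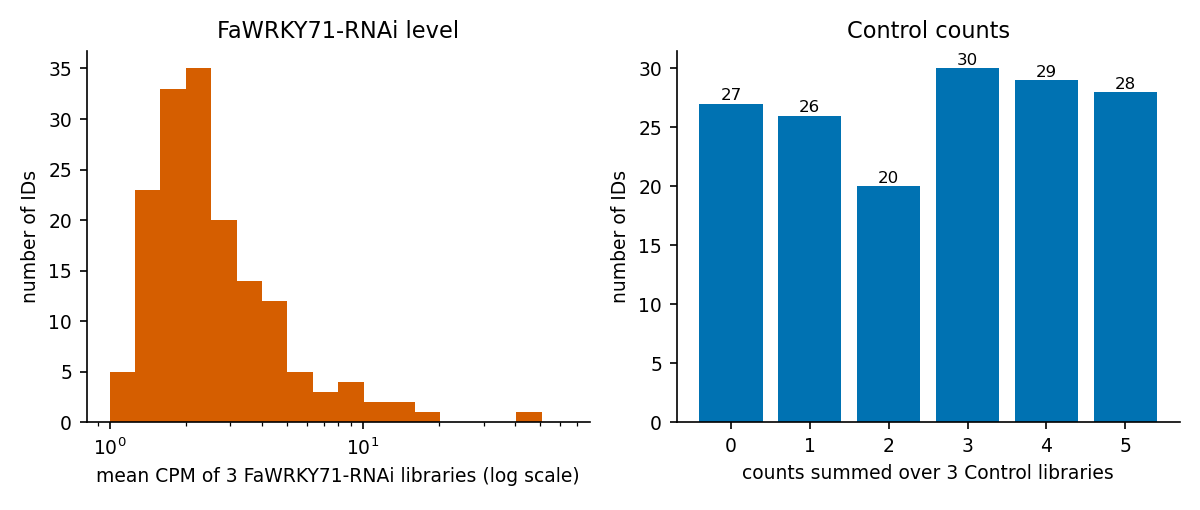
Left, number of restricted IDs by their mean CPM over the 3 FaWRKY71-RNAi libraries (log scale). Right, number by the counts summed over the 3 Control libraries, from 27 IDs at 0 to 28 IDs at the maximum of 5.

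Control counts were spread evenly over the range that the rule allows. There were 27 IDs at 0, 26 at 1, 20 at 2, 30 at 3, 29 at 4 and 28 at 5 counts over the 3 Control libraries. Within single Control libraries 1 to 3, 78, 75 and 93 of the 160 IDs were at 0. The pooled ratio of FaWRKY71-RNAi over Control, for the 133 IDs with a Control count, ranged from 6.03 to 447.6 with a median of 23.7. For the 27 IDs at 0, the fold against a floor of 3 counts over the Control group (0.110 CPM) was a lower bound that ranged from 11.4 to 384.7. It is a bound on the Control side only. The FaWRKY71-RNAi counts are pooled over the 3 libraries, and the spread among these is left out. With these IDs at their bound, the median over the 160 was 22.9. The lowest 95% exact limit of any of the 133 ratios was 2.33, and the thresholds of the rule keep these limits above 1. The intervals pool 3 libraries, and they cover counting error and not the choice of the IDs.

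The highest of the restricted IDs was FvH4_1g26490.1, with 219, 409 and 558 counts in FaWRKY71-RNAi replicates 1 to 3 and no count in any Control library. That is 42.8 ± 19.4 CPM in FaWRKY71-RNAi fruit (SD, n = 3), with a pooled fold of at least 384.7 taken against the Control floor. It was also among the more uneven, since replicate 3 was 2.76 times replicate 1, and it alone held 7.96% of the FaWRKY71-RNAi counts of the set.

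FvH4_5g28230.1 was next and far steadier, with 161, 132 and 167 counts in FaWRKY71-RNAi and 1, 0 and 0 in Control. Its levels were 16.3 ± 1.54 CPM in FaWRKY71-RNAi and 0.035 ± 0.061 CPM in Control (SD, n = 3 each), a ratio of 447.6 with a 95% exact interval from 79.9 to 17717. The width of this interval comes from the 1 Control count.

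FvH4_3g27050.1 had 182, 102 and 123 counts in FaWRKY71-RNAi and 4, 1 and 0 in Control. FvH4_2g31410.1 had 174, 99 and 124 counts in FaWRKY71-RNAi and 0 in each Control library after rounding. It averaged 14.0 ± 3.10 CPM in FaWRKY71-RNAi (SD, n = 3), at least 129-fold above the Control floor. In both IDs FaWRKY71-RNAi replicate 1 was highest and replicate 2 lowest. FvH4_3g05880.1 ran in another order, with 56, 142 and 99 counts in FaWRKY71-RNAi and 0, 0 and 5 in Control. All of its Control counts therefore came from Control replicate 3.

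A steadier group followed. FvH4_6g25680.1 had 104, 87 and 99 counts in FaWRKY71-RNAi and 1, 3 and 1 in Control, or 10.3 ± 0.41 CPM in FaWRKY71-RNAi and 0.18 ± 0.13 CPM in Control (SD, n = 3 each). FvH4_7g22160.1 had 83, 95 and 88 counts in FaWRKY71-RNAi and 1, 2 and 0 in Control. The ratio of its pooled levels was 86.3, with a 95% exact interval from 29.2 to 421.0. In FvH4_1g27690.1 the counts were 93, 77 and 83 in FaWRKY71-RNAi and 2, 0 and 3 in Control. Those of FvH4_4g11660.1 were 88, 69 and 85 in FaWRKY71-RNAi and 2, 3 and 0 in Control. In these 4 IDs the lowest FaWRKY71-RNAi library was within 1.5 times of the highest on the CPM scale.

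The last 3 of the 12 were lowest in FaWRKY71-RNAi replicate 2. FvH4_3g19610.1 had 132, 20 and 84 counts in FaWRKY71-RNAi and 3, 2 and 0 in Control. FvH4_3g03150.1 had 102, 40 and 84 in FaWRKY71-RNAi and 1, 3 and 1 in Control. FvH4_5g05520.1 had 90, 47 and 77 in FaWRKY71-RNAi and 1, 0 and 0 in Control, a pooled ratio of 208.2 with a 95% exact interval from 37.0 to 8263. In each the lowest FaWRKY71-RNAi count lay above the highest Control count, as the rule requires.

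**Figure D3:**
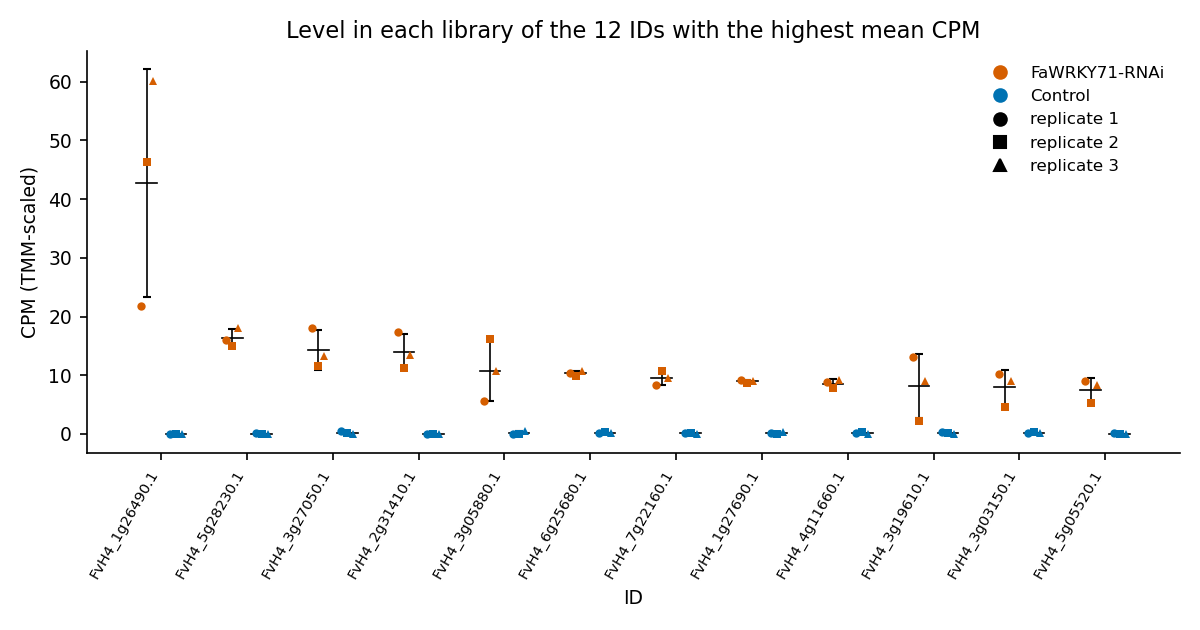
CPM in each library of the 12 restricted IDs with the highest mean, FaWRKY71-RNAi in orange left of Control in blue, with marker shape for the replicate and lines for the mean and SD (n = 3). FvH4_1g26490.1 reaches 60.1 CPM in FaWRKY71-RNAi replicate 3, and the Control points of all 12 IDs lie near 0.

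Outside these 12, the IDs at 0 in the Control libraries come closest to presence in 1 genotype alone. The deposited values were exactly 0 in all 3 Control libraries for 25 IDs, and for 2 they became 0 by rounding. One of the 2 is FvH4_2g31410.1 and the other is FvH4_7g02770.1, whose deposited Control values sum to 1 count and whose FaWRKY71-RNAi counts were 53, 28 and 36; it and the next 3 IDs were chosen for naming after their values were seen. FvH4_7g30910.1 had 48, 17 and 41 counts in FaWRKY71-RNAi and none in Control, at least 34.4-fold above the floor. FvH4_7g08130.1 had 37, 41 and 24 in FaWRKY71-RNAi and none in Control, at least 33.1-fold above it. FvH4_3g37500.1 had 29, 27 and 33 in FaWRKY71-RNAi and none in Control, at least 28.9-fold above it. The bounds of the 27 IDs had a median of 18.5; all use the same floor, so they differ only with the level in FaWRKY71-RNAi.

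The 3 FaWRKY71-RNAi libraries did not carry the restricted IDs equally, and other IDs called higher had a similar pattern. Of the 160, 80 (50%) had their lowest CPM in replicate 2, 42 in replicate 3 and 38 in replicate 1. The highest was in replicate 1 for 68 (42.5%). For comparison, 2894 other IDs of the same range of FaWRKY71-RNAi levels were called higher by edgeR. Among these, 48.7% were lowest in replicate 2 and 44.0% highest in replicate 1. Among the 10142 other tested IDs of that range, called or not, 39.1% were lowest in replicate 2 and 35.7% highest in replicate 1. The ratio of the highest to the lowest FaWRKY71-RNAi library had a median of 1.49 over the restricted IDs, 1.41 over those 10142 IDs (10105 with a count in each FaWRKY71-RNAi library) and 1.30 over the 2894. Most restricted IDs lie low in that range, where counting noise is larger, and IDs were not matched on level. The rule also removed IDs below 10 counts in any FaWRKY71-RNAi library, which limits how uneven a restricted ID can be, while the other IDs carry no such limit; the difference between the groups was not tested.

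**Figure D4:**
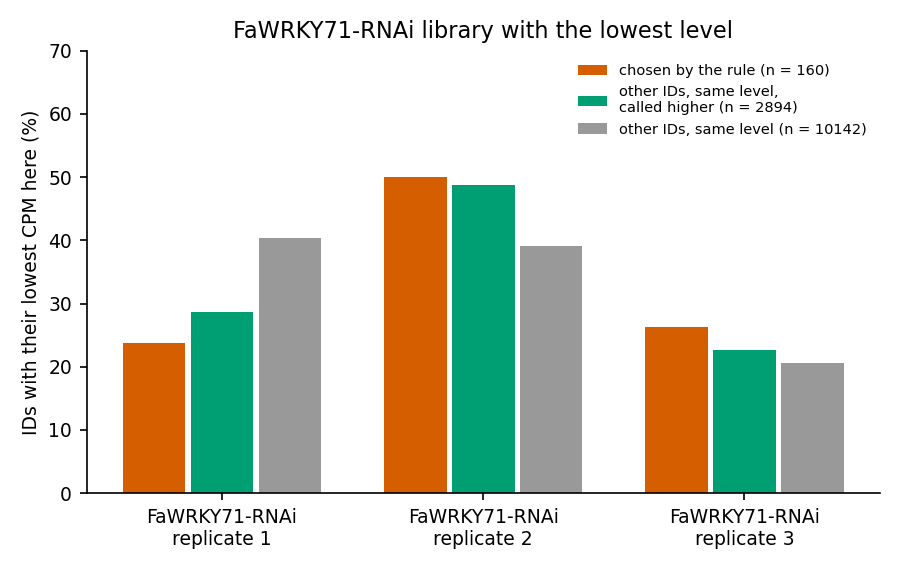
Share of IDs (vertical axis, %) that had their lowest CPM in each FaWRKY71-RNAi replicate, for the 160 restricted IDs, for other tested IDs of the same FaWRKY71-RNAi level range called higher (n = 2894) and for all other tested IDs of that range (n = 10142). Replicate 2 is the lowest library for 80 of the 160 restricted IDs and for 48.7% and 39.1% of the other groups.

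At the uneven end, among restricted IDs averaging at least 3 CPM, FvH4_3g19610.1 had the widest ratio of highest to lowest FaWRKY71-RNAi library, 5.80. FvH4_5g28510.1 followed with 53, 14 and 44 counts in FaWRKY71-RNAi and none in Control, a ratio between libraries of 3.33. FvH4_3g08690.1 had 49, 13 and 27 in FaWRKY71-RNAi and 3, 1 and 1 in Control, a ratio of 3.31. Replicate 2 was lowest in these 3 IDs, whereas in FvH4_3g05880.1, with a ratio of 2.89, replicate 2 was highest. At the even end, FvH4_2g14400.1 had 43, 36 and 38 counts in FaWRKY71-RNAi and 2, 1 and 2 in Control, and its FaWRKY71-RNAi libraries differed by a ratio of 1.05. FvH4_1g27690.1 (1.06), FvH4_6g25680.1 (1.08) and FvH4_3g10370.1 (1.09) were nearly as even. FvH4_3g10370.1 had 48, 41 and 47 counts in FaWRKY71-RNAi and 1, 1 and 1 in Control. Over the 160 IDs the ratio was at most 1.5 for 82 and at least 3 for 7.

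Each library in turn was left out of the rule, and its values were read for the IDs that the other libraries chose. When the rule was applied to the 2 other FaWRKY71-RNAi libraries and all Controls, it chose 178 IDs without replicate 1, and 89.9% of them had at least 10 counts in replicate 1, with a median of 22 and 4 IDs at 0. Without replicate 3 it chose 187 IDs, of which 85.6% had at least 10 counts there, with a median of 19 and 0 IDs at 0. Without replicate 2 it chose 237, of which 67.5% had at least 10 counts there, with a median of 14 and 5 IDs at 0. In each case the IDs with at least 10 counts are the 160 restricted IDs. These shares therefore compare the lists chosen with and without that library. A Control library left out gave the converse. The rule, with its maximum of 5 counts over the 2 Control libraries left, chose 259, 263 and 249 IDs without Control replicates 1 to 3. In the Control library left out, the median count of these IDs was 2, 2 and 1, and 88.8%, 89.4% and 90.0% of them had at most 5 counts. The highest values there were 16, 17 and 55 counts. The limit of 5 counts there applies to 1 library alone. None of these shares was set beside a share over all IDs, so whether they are particular to the chosen IDs was not tested. Of the FaWRKY71-RNAi libraries replicate 2 had the smallest share. It also had the lowest library total, and 10 counts stand for 1.13 CPM there, against 0.996 CPM in replicate 1.

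The restricted IDs are a small part of the IDs that Control fruit hardly expressed. At most 5 counts over the 3 Control libraries were found for 10399 of all listed IDs, and 5874 of these were also at 0 in FaWRKY71-RNAi. A total of 180 reached 10 counts in exactly 1 FaWRKY71-RNAi library and 122 in exactly 2, besides the 160 (1.54%) that reached it in all 3. Of the 122, 77 fell short in replicate 2, 27 in replicate 3 and 18 in replicate 1. Replicate 2 also had the lowest library total, 8385218 counts, and the part of depth in this was not tested. With the genotypes exchanged, 85 of 9751 IDs (0.872%) had at least 10 counts in each Control library and at most 5 over the FaWRKY71-RNAi libraries. With a minimum of 20 counts the numbers were 52 IDs seen in FaWRKY71-RNAi and 37 seen in Control. With 50 they were 12 in FaWRKY71-RNAi and 13 in Control, and with 100 they were 3 in FaWRKY71-RNAi and 9 in Control. The larger number in FaWRKY71-RNAi thus held for the lower minima only, and the difference was not tested.

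Deposited counts that are not whole numbers were frequent among the restricted IDs. All 6 values were whole for 81 of the 160 (50.6%). The share was 74.3% among the 10142 other tested IDs of the same FaWRKY71-RNAi level range, 69.4% among the 2894 of these called higher, and 77.6% among the 85 IDs seen in Control and nearly absent from FaWRKY71-RNAi. Fractions can arise where a read matching several IDs is divided between them, but the sources used here do not say how they arose. Fractional values stood in the FaWRKY71-RNAi libraries for 78 of the 160 IDs. Of the 12 IDs with the highest mean, 10 were fractional, among them FvH4_1g26490.1 and FvH4_5g28230.1, and only FvH4_1g27690.1 and FvH4_5g05520.1 were whole.

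The 81 restricted IDs with whole values summed to 221.1 ± 11.3 CPM in FaWRKY71-RNAi and 7.42 ± 1.42 CPM in Control (SD, n = 3 each). The 79 with a fractional value summed to 307.7 ± 20.9 CPM in FaWRKY71-RNAi and 7.57 ± 0.75 CPM in Control (SD, n = 3 each). The median FaWRKY71-RNAi level was 2.24 CPM over the whole and 2.35 CPM over the fractional IDs. Among the whole IDs 13 were at 0 in Control, and replicate 2 was the lowest FaWRKY71-RNAi library for 39. Reads given whole to 1 of several similar IDs would leave whole values, so their part in these levels was not tested.

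Each ID carries a series number before the letter g and a gene number after it. Restricted IDs were found in all 7 plain numbered series. Series 6 held 34 of them, series 3 held 27, series 5 held 24, series 7 held 22, series 1 held 21, series 4 held 17 and series 2 held 15. As a share of the listed IDs they ranged from 0.362% in series 2 to 0.687% in series 1, around 0.560% in the table as a whole. None of the 177 IDs of the series marked with the letter c was restricted; 51 of these 177 were tested. Summed levels in FaWRKY71-RNAi were highest in series 3, at 109.0 ± 11.3 CPM, and lowest in series 4, at 47.8 ± 1.09 CPM (SD, n = 3 each).

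Some restricted IDs were direct neighbours of each other. The numbers below were not set beside those that the density of restricted IDs, 0.560% of listed IDs, would give. Their spacing was not tested. In the order of gene numbers, 6 of the 160 stood next to another restricted ID, as 3 pairs, 14 had one within 5 IDs and 30 within 10, and the median distance to the nearest was 45.5 IDs. FvH4_4g10430.1 had 12, 10 and 10 counts in FaWRKY71-RNAi and 2, 3 and 0 in Control, while its neighbour FvH4_4g10440.1 had 12, 35 and 22 in FaWRKY71-RNAi and none in Control. Both are fractional, and they did not follow the same order over the FaWRKY71-RNAi libraries. FvH4_5g21060.1 had 14, 14 and 11 counts in FaWRKY71-RNAi and 0, 1 and 0 in Control, and FvH4_5g21070.1 had 50, 26 and 56 in FaWRKY71-RNAi and 1, 2 and 0 in Control. FvH4_6g52490.1 had 25, 28 and 24 counts in FaWRKY71-RNAi and 3, 1 and 1 in Control, and FvH4_6g52500.1 had 29, 28 and 23 in FaWRKY71-RNAi and 0, 1 and 0 in Control. The last pair was alike in level and evenness in FaWRKY71-RNAi, and both pairs of series 5 and 6 have whole values.

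The IDs beside the restricted ones were not chosen by the rule, and their change was read from edgeR's quasi-likelihood test over all 15547 tested IDs (Benjamini-Hochberg adjusted p below 0.05). In that test 54.3% of all IDs were called, 30.1% higher and 24.2% lower in FaWRKY71-RNAi. Of the restricted IDs 155 passed the filter on low counts and all 155 were called higher, which the choice of the IDs brings about and from which nothing is read. The nearest tested ID on each side gave 307 neighbours. Of these 120 (39.1%) were called higher, 53 (17.3%) lower and 134 were not called. A call together with a fitted fold of at least 2 in the higher direction was found for 85 neighbours (27.7%), beside 18.0% of all tested IDs. The median log2 fold change was 0.26 over the neighbours and 0.03 over all tested IDs. The median level was 14.7 CPM over the neighbours and 17.9 CPM over all tested IDs, and IDs were not matched on level.

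Neighbours with whole values and those with fractional values each had a larger share called higher than the tested IDs of the same kind. Among the 190 neighbours with whole values 64 (33.7%) were called higher, beside 28.4% of all tested IDs with whole values. Among the 117 with a fractional value 56 (47.9%) were, beside 35.3% of the tested IDs with a fractional value. The 167 neighbours that directly adjoin a restricted ID in the list were called higher in 75 cases (44.9%). With the 3 nearest tested IDs on each side the share was 34.9% of 872. These shares describe the neighbours, and the excess over the background was not tested.

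**Figure D5:**
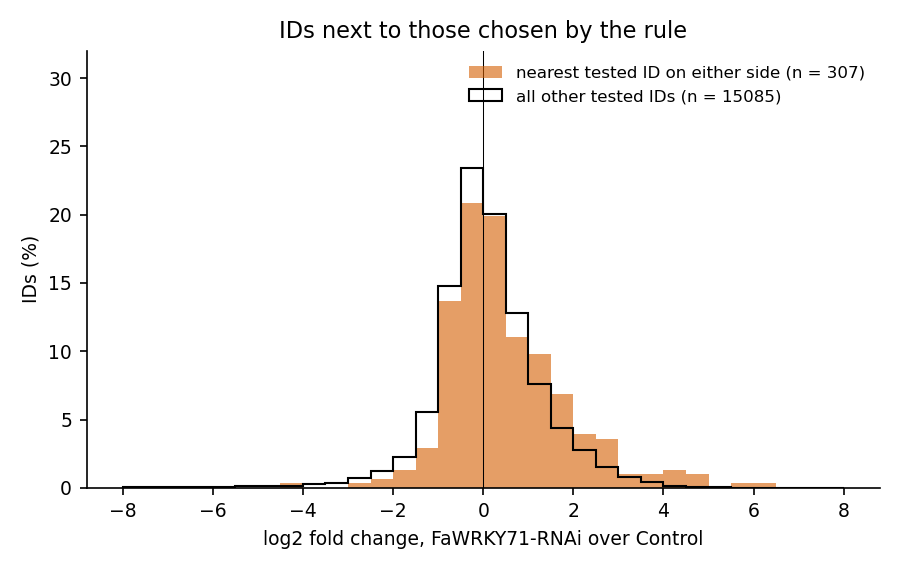
Distribution of the log2 fold change, FaWRKY71-RNAi over Control (horizontal axis), as % of IDs for the 307 tested neighbours of restricted IDs (orange) and all other tested IDs (black line, 15085 without the restricted IDs). The neighbours lie further to the right, with a median of 0.26; 9 of the other IDs beyond 8 in size are drawn in the outermost bins.

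Among called neighbours with a mean of at least 1 CPM over the 6 libraries, the 4 with the largest change were all higher in FaWRKY71-RNAi and had few Control counts. FvH4_7g22150.1, which adjoins the restricted FvH4_7g22160.1, had 222, 185 and 187 counts in FaWRKY71-RNAi and 5, 2 and 3 in Control. It was at 21.1 ± 0.98 CPM in FaWRKY71-RNAi and 0.36 ± 0.15 CPM in Control (SD, n = 3 each; log2 fold change 5.80, edgeR adjusted p = 8.5e-06). FvH4_4g11200.1, near FvH4_4g11220.1, had 111, 68 and 109 counts in FaWRKY71-RNAi and 9, 0 and 0 in Control, with a log2 fold change of 4.90 (edgeR adjusted p = 0.0023). FvH4_3g07410.1, which adjoins FvH4_3g07400.1, had 152, 96 and 149 in FaWRKY71-RNAi and 3, 7 and 3 in Control (log2 fold change 4.85, edgeR adjusted p = 5.2e-05). FvH4_1g27140.1, near FvH4_1g27110.1, had 47, 60 and 54 in FaWRKY71-RNAi and 3, 2 and 1 in Control (log2 fold change 4.63, edgeR adjusted p = 9.3e-05). The first 3 exceeded the Control maximum of the rule by 4 to 8 counts and the last by 1. Of these only FvH4_3g07410.1 has whole values.

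Neighbours also moved the other way. On the far side of FvH4_7g22160.1, FvH4_7g22170.1 had 3406, 8248 and 4864 counts in FaWRKY71-RNAi and 29500, 27516 and 26385 in Control (log2 fold change -2.34, edgeR adjusted p = 0.0029); it was named after its values were seen. FvH4_7g22150.1 and FvH4_7g22160.1 were thus higher in FaWRKY71-RNAi and the next listed ID, at far higher level, was lower. Beside the restricted FvH4_2g41080.1, FvH4_2g41070.1 had 0, 2 and 2 counts in FaWRKY71-RNAi and 19, 30 and 30 in Control. Its log2 fold change was -4.22 (edgeR adjusted p = 0.0012), and it too was named after its values were seen.

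In windows of up to 100 listed IDs, the densest held 6 restricted IDs among 99, from FvH4_5g27530.1 to FvH4_5g28510.1; the windows were searched for after the data were seen. It holds FvH4_5g28230.1, FvH4_5g28510.1 and 4 others. FvH4_5g27960.1 had 42, 35 and 52 counts in FaWRKY71-RNAi and 3, 1 and 1 in Control, and FvH4_5g28490.1 had 29, 27 and 18 in FaWRKY71-RNAi and 1, 2 and 2 in Control. Of the 50 other tested IDs in this window 30 were called higher and 5 lower, beside the 30.1% called higher over all tested IDs. The next 3 windows, in series 3, 6 and 1, held 5 restricted IDs each, and 42.9%, 38.6% and 40.4% of their other tested IDs were called higher. As the densest windows of the table, they are descriptions only.

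At the lower edge of the rule, the members with the smallest level were FvH4_1g04450.1, with 11, 10 and 10 counts in FaWRKY71-RNAi and 1, 0 and 4 in Control, FvH4_4g10430.1, given above, and FvH4_6g23150.1. The last had 10, 11 and 13 counts in FaWRKY71-RNAi and 0, 2 and 1 in Control. Among the IDs just outside, whose lowest FaWRKY71-RNAi count was 9, the 3 with the highest mean CPM each had it in replicate 2. FvH4_4g06860.1 had 25, 9 and 22 in FaWRKY71-RNAi and none in Control. FvH4_3g15250.1 had 15, 9 and 26 in FaWRKY71-RNAi and none in Control. FvH4_3g03470.1 had 30, 9 and 10 in FaWRKY71-RNAi and 2, 0 and 2 in Control. The first 2 of these had no Control count, unlike 133 of the members.

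At the upper edge, 28 members had 5 Control counts, 12 of which are described above besides FvH4_5g27960.1 and FvH4_5g28490.1. FvH4_3g10160.1 had 39, 36 and 45 counts in FaWRKY71-RNAi and 5, 0 and 0 in Control, so that its Control counts came from replicate 1 alone. FvH4_2g20360.1 had 51, 33 and 38 in FaWRKY71-RNAi and 1, 1 and 3 in Control. FvH4_6g25560.1 had 47, 45 and 27 in FaWRKY71-RNAi and 3, 0 and 2 in Control. These 3 had pooled ratios of 23.4, 23.7 and 23.2. FvH4_2g12100.1 had 43, 23 and 33 in FaWRKY71-RNAi and 0, 4 and 1 in Control. FvH4_6g25000.1 had 37, 33 and 31 in FaWRKY71-RNAi and 0, 2 and 3 in Control. FvH4_3g40390.1 had 33, 25 and 24 in FaWRKY71-RNAi and 2, 3 and 0 in Control. The ratios of this group lay between 15.96 and 19.7.

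The remaining IDs at 5 Control counts had lower ratios. FvH4_7g06220.1 had 26, 19 and 22 counts in FaWRKY71-RNAi and 3, 1 and 1 in Control. FvH4_7g00850.1 had 24, 13 and 18 in FaWRKY71-RNAi and 0, 3 and 2 in Control. FvH4_3g12860.1 had 20, 17 and 21 in FaWRKY71-RNAi and 1, 0 and 4 in Control. Their ratios were 13.0, 10.7 and 11.3. FvH4_1g18340.1 had 19, 13 and 17 in FaWRKY71-RNAi and 2, 3 and 0 in Control. FvH4_7g26500.1 had 19, 10 and 14 in FaWRKY71-RNAi and 3, 0 and 2 in Control. FvH4_7g32460.1 had 13, 17 and 17 in FaWRKY71-RNAi and 2, 1 and 2 in Control. These 3 had ratios from 8.37 to 9.54. FvH4_6g12590.1 had 10, 15 and 22 in FaWRKY71-RNAi and 1, 3 and 1 in Control. FvH4_6g23070.1 had 10, 40 and 13 in FaWRKY71-RNAi, with replicate 2 far above the others, and 1, 3 and 1 in Control. Both were among the 5 members removed by the filter on low counts.

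Just above the Control maximum, with 6 Control counts, the highest IDs were FvH4_1g27140.1, given above, FvH4_6g14380.1 and FvH4_4g21080.1. FvH4_6g14380.1 had 75, 44 and 31 counts in FaWRKY71-RNAi and 0, 6 and 0 in Control. FvH4_4g21080.1 had 62, 31 and 52 in FaWRKY71-RNAi and 3, 1 and 2 in Control. Both averaged above 5 CPM in FaWRKY71-RNAi, a level that 18 of the 160 members reached.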

How the data were processed

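Estimated counts of 28588 IDs in 6 libraries were deposited by the authors as 1 table. Per the labels, poly(A)-selected, strand-specific libraries were sequenced as read pairs of 100 bases. Aligner, counter, build and annotation: not given in the sources used here. Columns were matched to samples through library names; a Control column name also resembles another Control's title, so Control replicate numbers are less certain than genotypes. Per the values of the deposited table, library totals were 8385218 to 10000538, and 3 counts correspond to 0.299 to 0.341 CPM.

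Estimated counts were rounded. All IDs passing filterByExpr (15547) were TMM-scaled and tested for genotype, the only term, by the robust quasi-likelihood method of edgeR 4.0.16 (R 4.3.3), with p-values adjusted by Benjamini-Hochberg. Values are whole if within 1e-09 of a whole number. Folds against 0 use a floor of 3 counts over the group; other ratios have exact 95% intervals. No molecular identifiers are described, so reads are not independent molecules and these cover counting error only. The test was checked on simulated counts in which a small part of the IDs changed. In the real counts 54.3% of tested IDs were called, a setting that this check does not cover.

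Members and lists were chosen with earlier results of these data known. Named were the 12 members with the highest mean CPM, the 4 most and 4 least even with at least 3 CPM, adjacent members, those at either edge of the rule (ties by mean CPM), and the 4 called neighbours with the largest change and at least 1 CPM. Alternatives were other scalings, filters and thresholds, DESeq2 1.42.0, limma 3.58.1 (voom), a replicate block, and each library left out. Values by whole counts and the library held out were added after seeing the data.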

Additional observations from a re-analysis of the deposited data

How the results depend on the processing

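The number of restricted IDs follows its thresholds. It was 160 as reported, 377 with a minimum of 5 and 52 with a minimum of 20 counts in FaWRKY71-RNAi, and 27 with a Control maximum of 0 and 307 with a maximum of 10. It was 81 over IDs with whole values, 147 with unrounded counts and 133 with counts scaled to equal depth. Leaving a library out of the rule gave 178 to 263 IDs. Of these, the counts without Control replicates 1, 2 and 3 were 259, 263 and 249, since the maximum of 5 then covers fewer libraries. The stricter filter left 5 members to test, and these were the members called higher under it. The rule fixes the direction of members, so their calls are no sign of stability. The neighbours called higher numbered 304 of 872 with the 3 nearest IDs on each side, which tests more IDs, and 64 with whole values only. In the scaling, filter, tool, block and leave-out alternatives their share ranged from 31.7% to 43.7%, in each case above the share of all tested IDs in the same alternative, which was lowest with no filter (33.3% of neighbours, 20.8% of all). The 4 neighbours named for the largest change kept direction and call wherever they could be tested. They were picked for their call and change in these same libraries, so this is no sign of stability either. Among named members, whose direction the rule fixes, 5 calls ended: FvH4_1g26490.1 without FaWRKY71-RNAi replicate 2 (edgeR adjusted p = 0.13), and FvH4_1g04450.1 with the replicate block (0.056) and without Control replicate 1 (0.089), Control replicate 2 (0.052) and FaWRKY71-RNAi replicate 3 (0.065); the cause was not tested. No pairing was seen: deviations of same-numbered libraries correlated at 0.0905, -0.0441 and 0.0306. With the replicate block 7611 IDs were called against 8435, 154 members and 110 neighbours higher. The median member had 18 to 25 counts per FaWRKY71-RNAi library, so depth limits its fold.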
